A study of Mus musculus with 4 samples.

Results

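Genes that make sterols and fatty acids, or carry and store these lipids, were followed in RNA of the left hippocampus from male mice that were 12 months old. They were taken as every probe set, a group of short probes read together as 1 transcript, which the platform annotation pairs with 1 of 38 listed gene symbols and no other. Of the 38 genes, 30 were found, by 44 of the 12422 probe sets of the array, and 10 of the 30 had several probe sets. By role these were 21 probe sets of 14 sterol synthesis genes, 2 probe sets of 2 regulators of sterol synthesis, 11 of 7 fatty acid synthesis genes and 10 of 7 genes of lipid transport and storage. Acat1, Acat2, Pmvk, Srebf2, Acaca, Fads2, Soat1 and Cyp46a1 were not analysed here.

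The control group was 2 nontransgenic mice, labelled C57B6/SJL, and the other group was 2 Tg2576 mice, labelled APPSw, with 1 Affymetrix array per mouse. Tg2576 mice overexpress amyloid precursor protein carrying the Swedish mutation, and the transgene of this line is known to be driven by a prion protein promoter. Since the labels do not tell whether the animals came from common litters or separate preparations, p-values cover the spread among these 4 samples alone, and part of it may be technical. The comparison asks which lipid genes differ between transgenic and nontransgenic animals.

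Brain cholesterol is made in the brain itself, because lipoproteins of the blood do not cross the blood-brain barrier. The mevalonate pathway turns acetyl-CoA into isoprenoids and squalene, which later enzymes convert through lanosterol to cholesterol. SREBP transcription factors switch on these enzymes when sterols are scarce, and in the adult brain glia supply much of the sterol for myelin and for neurons.

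The values are signals on a linear scale, and a log2 difference is the mean log2 signal of the APPSw arrays minus that of the controls, with the standard error (SE) of the limma fit. Median signals over all probe sets were 926 and 988 on the controls and 1033 and 1013 on the APPSw arrays, and the median log2 difference over all probe sets was 0.06. Of all probe sets 56.3% had a log2 difference above 0. The App probe set averaged 89889 ± 7054 (SD, n = 2) on the control arrays and 89909.6 ± 9229 (SD, n = 2) on the APPSw arrays; the sources used here do not state whether its mouse probes detect the transcript of the transgene, so it checks no label. Of the markers of hippocampal principal neurons, 9 of the 10 genes found passed the signal filter. Their summed signal was 65879 to 68286 on the controls and 45348 to 58805 on the APPSw arrays, with 10 of 13 probe sets below 0. The markers were not alike: Bok had a log2 difference of -0.78 and Nrgn, the brightest, of -0.71, while Wfs1 had -0.00. The 3 above 0 were the Camk2a sets, at 0.00 and 0.44, and a Tdo2 set under the filter, at 0.52. Between the APPSw arrays the Camk2a sets differed by 1.33 and 1.07 in log2. Markers of oligodendrocytes, which make myelin and much sterol, summed to 137870 to 146665 on the controls and 112623 to 131850 on the APPSw arrays, with 12 of 14 probe sets below 0. Astrocyte markers summed to 116844 to 118303 and 115076 to 118266, with 8 of 13 below 0. Microglial markers summed to 32826 to 37500 and 33406 to 33729, with 9 of 12 above 0, and endothelial markers to 16279 to 16489 and 15239 to 18132, with 6 of 11 above 0. Markers of the choroid plexus summed to 5952 and 13689 on the controls, 102889 on APPSw array 1 and 6823 on APPSw array 2, with 8 of 10 above 0. No marker probe set was at 0. The part of these markers in the results below was not tested, and in whole tissue fewer cells of a type and less RNA per cell cannot be told apart.

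Most sterol synthesis probe sets had higher signals in the APPSw mice, while those of fatty acid synthesis lay on both sides of 0. Of the 21 sterol synthesis probe sets, 18 had a log2 difference above 0, against 56.3% of all probe sets, and their median was 0.39, a factor of 1.31. For 14 of the 21 both APPSw arrays lay above both controls, against 23.6% of all probe sets, and for 1 of 21 both lay below, against 15.7%. With 1 probe set per gene, the brightest, the median was 0.26, with 12 of 14 genes above 0, and the median of all genes was then 0.04. Probe sets of a gene can share a target, so 21 probe sets are not 21 separate measurements. The median log2 signal of the sterol synthesis probe sets lay 0.28 above the control mean on APPSw array 1 and 0.26 above it on APPSw array 2, and the controls differed by a median of -0.01. Leaving out an APPSw array gives the value of the other one again, 0.26 without array 1 and 0.28 without array 2, so it is no separate check. The part of the high choroid plexus markers of APPSw array 1 was not tested. The median log2 difference of the probe sets was 0.25 where signals were floored at 250 and 0.24 where 250 was added to each.

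No single probe set passed the test. By limma 0 of the 36 member probe sets that passed the signal filter had an adjusted p under the threshold of 0.05, as was the case for 0% of the 7453 probe sets tested, and the lowest adjusted p among the members was 0.599. Without adjustment, 5 higher member probe sets, all of sterol synthesis, had a p under 0.05, and 1 lower one did, against 4.72% higher and 3.33% lower among all probe sets tested. The 5 belong to Fdps, Nsdhl and Sc5d alone, with Nsdhl and Sc5d each counted by a pair of probe sets. The smallest p that an exact permutation test of 2 arrays against 2 can give is 0.333, so no member can be called by such a test.

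**Figure D1:**
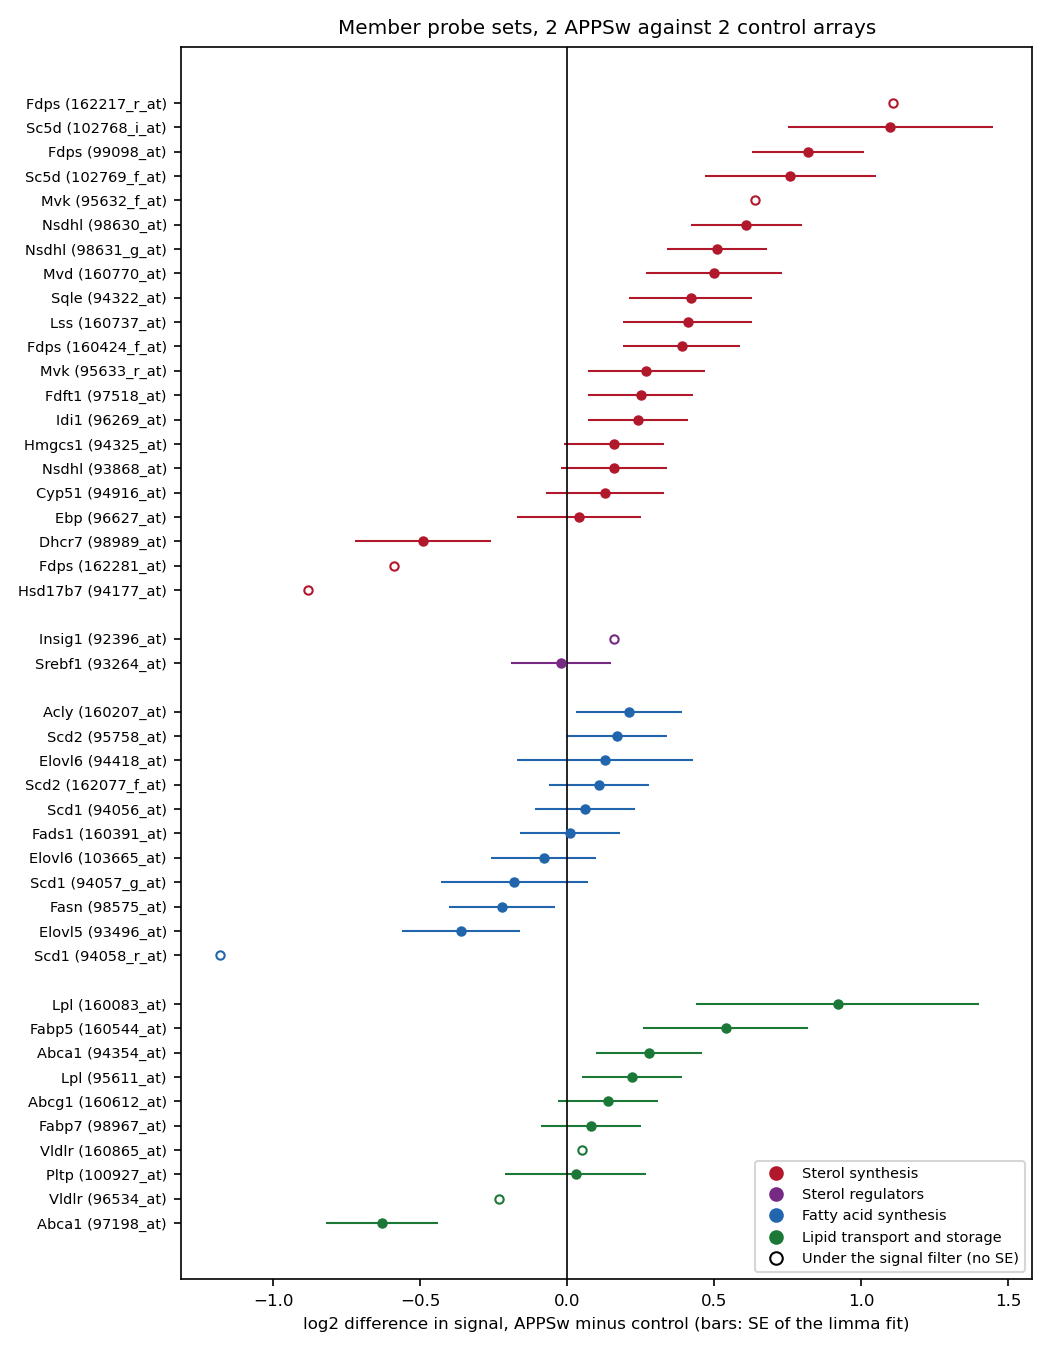
Log2 difference in signal, APPSw minus control, for the 44 member probe sets in 4 groups, with the SE of the limma fit as bars; open circles are probe sets under the signal filter. Of the 21 sterol synthesis probe sets 18 lie above 0, while the 11 fatty acid synthesis probe sets lie on both sides of 0.

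Of the early mevalonate enzymes, Hmgcs1, HMG-CoA synthase, read 6303 and 6361 on the control arrays and 6791 and 7419.9 on the APPSw arrays. Both APPSw arrays lay above both controls, by a log2 difference of 0.16 (SE 0.17). Mvk, mevalonate kinase, had 1767 and 2328 on the control arrays and 2465 and 2412 on the APPSw arrays by its brighter probe set, again without overlap, a log2 difference of 0.27 (SE 0.20) that was 0.07 without control array 1. Its dim probe set, made from the same sequence entry and under the filter, had 157 and 99.9 against 192 and 198, a log2 difference of 0.64 that was 0.32 without control array 2 and 0.00 where signals were floored at 250. Mvd, which decarboxylates the diphosphate of mevalonate to isopentenyl diphosphate, had 1029 and 908 on the control arrays and 1144 and 1626 on the APPSw arrays. The groups did not overlap, and its log2 difference of 0.50 (SE 0.23) was 0.24 without APPSw array 2, the higher of its arrays. Idi1, the isomerase of isopentenyl diphosphate, had 3098 and 3163 against 3822 and 3558, a log2 difference of 0.24 (SE 0.17).

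Fdps, which joins isoprenoid units to farnesyl diphosphate, had the largest moderated statistic of all members. Its brightest probe set read 6259 and 7519 on the control arrays and 11189 and 13027 on the APPSw arrays, so the lower APPSw array was well above the higher control. The means were 6889 ± 890.5 (SD, n = 2) and 12108 ± 1300.1 (SD, n = 2), a log2 difference of 0.82 (SE 0.19), against -0.26 between the controls. Its second probe set, marked f by the manufacturer for probes shared within a gene family, had 4962 and 5571 on the control arrays and 6098 and 7783 on the APPSw arrays. That difference was 0.39 (SE 0.20), and 0.21 without APPSw array 2. The other Fdps probe sets lay under the filter and opposed each other. By one, the signals were 655 and 716 on the control arrays and 671 and 310.1 on the APPSw arrays, a log2 difference of -0.59 that was -0.03 without APPSw array 2; by the other they were 7.0 and 151 against 45.8 and 107, a difference of 1.11 that was -1.11 without control array 1 and 0.50 without APPSw array 2. In both the groups overlapped.

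For squalene synthesis and the first conversions of squalene the log2 differences were 0.25 to 0.42. Fdft1, squalene synthase, read 5978 and 5791 on the control arrays and 6392 and 7666 on the APPSw arrays, a log2 difference of 0.25 (SE 0.18) that was 0.12 without APPSw array 2. Sqle, squalene epoxidase, had 6705 and 5919.7 against 9732 and 7322, a difference of 0.42 (SE 0.21) that was 0.22 without APPSw array 1. Lss, which cyclises squalene epoxide to lanosterol, had 685 and 588 against 989 and 718, a difference of 0.41 (SE 0.22) and 0.18 without APPSw array 1. For these genes both APPSw arrays lay above both controls, though for Lss the lower APPSw array was close to the higher control. Cyp51, the lanosterol demethylase, had 1061 and 828 on the control arrays and 1079.6 and 971 on the APPSw arrays, and its groups overlapped, with a difference of 0.13 (SE 0.20).

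Among the enzymes after lanosterol, Nsdhl, a sterol dehydrogenase that takes part in removing methyl groups, was measured by 3 probe sets. Its brightest probe set had 2826 and 2773 on the control arrays and 3945 and 4036 on the APPSw arrays, with means of 2799 ± 37.9 (SD, n = 2) and 3991 ± 64.7 (SD, n = 2). The log2 difference was 0.51 (SE 0.17), and leaving out each array in turn gave 0.49 to 0.53. A second Nsdhl probe set had 1883 and 1549 against 2733 and 2499, a difference of 0.61 (SE 0.19). The manufacturer numbered this pair in sequence, so the sets may share a target and may not be separate measurements. In both sets the APPSw arrays lay above the controls; the controls of the second differed by 0.28 in log2. The third had 1261 and 1155 on the control arrays and 1255 and 1448 on the APPSw arrays, with overlapping groups and a difference of 0.16 (SE 0.18).

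Sc5d, which places a double bond in the sterol ring near the end of the pathway, was measured by a pair of probe sets made from the same sequence entry. The first read 468 and 574 on the control arrays and 781 and 1581 on the APPSw arrays, and the second had 751 and 471 on the control arrays and 858 and 1181 on the APPSw arrays. The second is marked f for probes shared within a gene family, as are the second Fdps set and the dim Mvk set. APPSw array 2 was the highest in both. The log2 differences were 1.10 (SE 0.35) and 0.76 (SE 0.29), and without APPSw array 2 they were 0.59 and 0.53. The second was 0.42 without control array 2. Ebp, the isomerase that acts before Sc5d, had 1209 and 1597 on the control arrays and 1468 and 1383 on the APPSw arrays. Its groups overlapped, and its difference of 0.04 (SE 0.21) was -0.06 when each array was centred on its median.

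Genes on the lower side of sterol synthesis were few. Dhcr7, which completes cholesterol by reducing 7-dehydrocholesterol, had 1043 and 1091 on the control arrays and 919.9 and 629 on the APPSw arrays. Both APPSw arrays lay below both controls, and the log2 difference of -0.49 (SE 0.23) was -0.21 without APPSw array 2. Hsd17b7, a ketosteroid reductase of the pathway, lay under the filter, with 298 and 471 against 305 and 136, overlapping groups and a difference of -0.88 that was -0.55 without control array 2 and -0.30 without APPSw array 2. Probe sets were also counted where the groups did not overlap, by any margin, and the mean log2 difference was at least 0.3 in size. By that measure 10 of 21 of sterol synthesis were higher, against 17.7% of all probe sets, and 1 of 21 was lower, against 10.2%. For these and for those with an unadjusted p under 0.05 by limma, the adjusted p ran from 0.599 to 0.634 where tested. The 10 belong to 7 genes, Fdps, Lss, Mvd, Mvk, Nsdhl, Sc5d and Sqle.

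**Figure D2:**
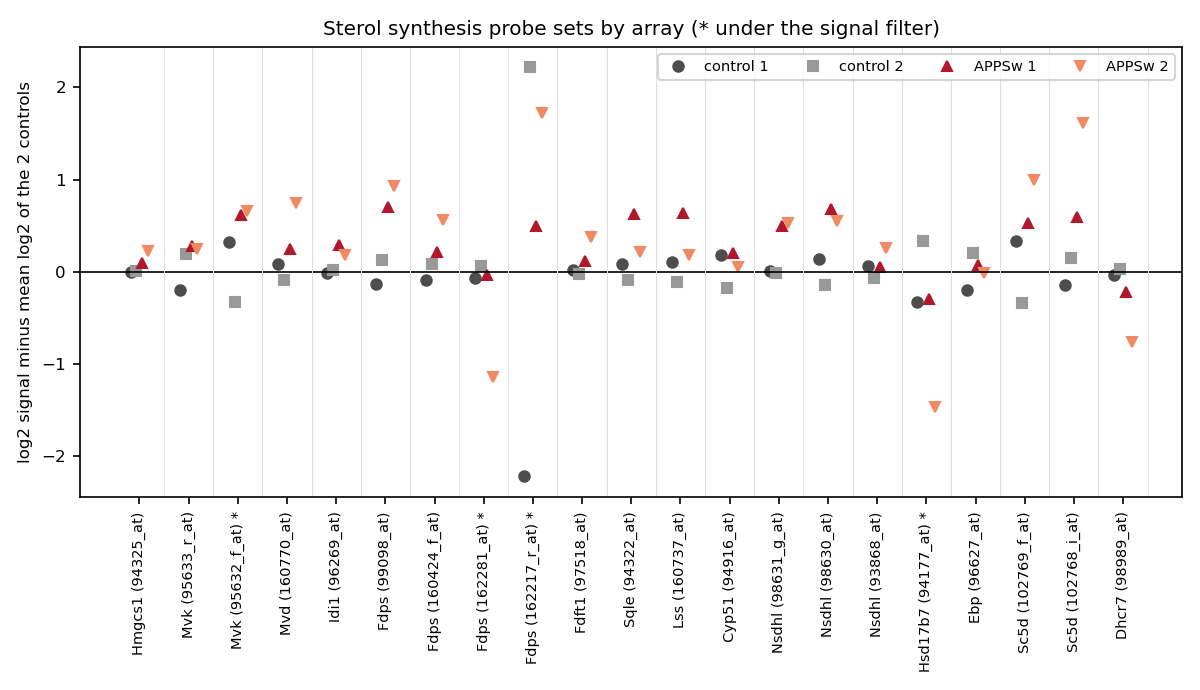
Log2 signal of each sterol synthesis probe set on each array, relative to the mean log2 signal of the controls; circles and squares are the control arrays, triangles the APPSw arrays, and asterisks mark probe sets under the filter. Both APPSw arrays of the brightest Fdps and the brightest Nsdhl probe set lie above both controls, while Dhcr7 lies below and the dimmest Fdps probe set spreads widest between the controls.

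The promoters of the listed genes were read for short sequence motifs. RefSeq promoter windows of GRCm38.p6 were held for 28 of the 38 listed genes, 13 of them sterol synthesis genes, of which 11 were also on the array; Fdps, Fdft1 and Sqle were not among them. A window was the 250 bases before a start in the RefSeq promoter table, and both strands were searched. A gene with several windows was counted once if any of them matched. Of the 13 sterol synthesis genes 2 had several, as had 15.4% of all genes. Among genes with a promoter and a probe set that passed the filter, 21.4% had several, which gives that group more chances of a match. The CCAAT box (CCAAT), bound by the factor NF-Y, which acts beside SREBP at many sterol genes, was in 12 of the 13 sterol synthesis promoters. It was in 40.6% of the 4571 genes with a promoter and a probe set that passed the filter, and in 37.5% of all 27025 genes. It was also in 2 of 6 fatty acid synthesis promoters, 5 of 6 of lipid transport and storage, and 3 of 3 of the regulators. The GC box (GGGCGG), bound by Sp1, was in 12 of 13 sterol synthesis promoters, against 65.7% of the 4571 genes. It was in 2 of 6 promoters of fatty acid synthesis, 4 of 6 of lipid transport and storage, and 3 of 3 of the regulators. The E-box (CACGTG) was in 3 of 13 sterol synthesis promoters, against 11.2%, and in 1 of 6, 1 of 6 and 1 of 3 of those other lists. The 3 were those of Sc5d, on the higher side, and of Dhcr7 and Hsd17b7, on the lower side. All of them also held the CCAAT box and the GC box. Whether a motif goes with the direction of a gene was not tested. A strict form of the sterol regulatory element (TCACNCCAC), the site of SREBP, was in 1 of 13 sterol synthesis promoters, that of Hmgcs1, against 1.42%. These counts describe letters and not binding, and no match says only that those letters are not in the window.

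Windows are shown for Hmgcs1, which holds the sterol regulatory element, and for the members with the largest moderated statistics among those with a promoter, Nsdhl and Sc5d on the higher side and Abca1 on the lower. Bases run 5′ to 3′ on the gene's strand, and capitals mark the CCAAT box (ATTGG on the other strand), the E-box and the sterol regulatory element, with no overlap between them. The Hmgcs1 window is chr13:119690101-119690350 on the plus strand, with the sterol regulatory element at bases -137 to -129 from the start. Those of Nsdhl and Sc5d are chrX:72918271-72918520 on the plus strand and chr9:42264301-42264550 on the minus strand, and that of Abca1 is chr4:53159896-53160145 on the minus strand. The start used for Abca1 lies within the gene's annotated span, so 93 bases of its window are inside the gene; the other windows lie outside theirs.
Hmgcs1: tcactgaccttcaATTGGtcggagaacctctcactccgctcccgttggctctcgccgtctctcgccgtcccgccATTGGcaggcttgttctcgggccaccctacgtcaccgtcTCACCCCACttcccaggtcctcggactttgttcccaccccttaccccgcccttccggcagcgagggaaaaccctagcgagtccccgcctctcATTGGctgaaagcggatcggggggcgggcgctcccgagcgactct
Nsdhl: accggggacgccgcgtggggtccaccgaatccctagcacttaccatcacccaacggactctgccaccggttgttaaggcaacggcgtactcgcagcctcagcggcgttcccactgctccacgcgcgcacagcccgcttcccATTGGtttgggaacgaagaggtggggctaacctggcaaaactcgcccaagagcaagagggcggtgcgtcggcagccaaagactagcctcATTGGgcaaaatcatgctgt
Sc5d: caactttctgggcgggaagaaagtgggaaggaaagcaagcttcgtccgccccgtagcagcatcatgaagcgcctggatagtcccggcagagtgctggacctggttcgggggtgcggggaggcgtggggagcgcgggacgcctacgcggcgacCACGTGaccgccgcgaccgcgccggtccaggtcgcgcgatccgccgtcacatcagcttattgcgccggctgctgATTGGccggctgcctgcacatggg
Abca1: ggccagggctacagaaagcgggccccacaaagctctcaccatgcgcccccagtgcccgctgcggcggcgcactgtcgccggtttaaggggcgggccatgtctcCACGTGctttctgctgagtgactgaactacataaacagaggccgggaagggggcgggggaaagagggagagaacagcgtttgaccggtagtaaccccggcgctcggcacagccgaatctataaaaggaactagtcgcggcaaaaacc

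On the strand opposite to the one printed, Hmgcs1 holds CCAAT boxes at -237, -176 and -45, Nsdhl at -109 and -20, and Sc5d at -24. Positions are the distance of the motif's first printed base from the start. Abca1, whose probe sets pointed in opposite directions, holds none in its window, and an E-box at -147.

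For the regulators of sterol synthesis the group differences were within the spread of the arrays. Srebf1, which encodes SREBP-1, read 8935 and 8376 on the control arrays and 8757 and 8311 on the APPSw arrays. The groups overlapped, and the log2 difference of -0.02 (SE 0.17; limma, adjusted p = 0.982) changed sign when control array 1 or APPSw array 2 was left out. Insig1, a sterol-sensing protein that holds SREBP in the endoplasmic reticulum, was dim and under the filter, with 32.4 and 184 on the control arrays and 94.9 and 79.1 on the APPSw arrays. Its controls differed by -2.51 in log2, far more than the group difference of 0.16.

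Fatty acid synthesis showed no common direction. Of its 11 probe sets 6 had a log2 difference above 0, against 56.3% of all probe sets, and 5 below, with a median of 0.01. By limma 0 of the 10 that passed the filter had an unadjusted p under 0.05, against 4.72% higher and 3.33% lower among all probe sets tested. Acly, which makes cytosolic acetyl-CoA from citrate, read 7785 and 7750.4 on the control arrays and 9819.9 and 8237 on the APPSw arrays, a difference of 0.21 (SE 0.18) that was 0.08 without APPSw array 1. Fasn, fatty acid synthase, had 5927 and 5047 on the control arrays and 4846 and 4573 on the APPSw arrays, a difference of -0.22 (SE 0.18) that was -0.10 without control array 1. In neither gene did the groups overlap, and they differed in opposite directions by amounts near their SE.

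Among the desaturases, which add double bonds, Scd2, the main brain form of stearoyl-CoA desaturase, read 58031 and 55625 on the control arrays and 67882 and 60494 on the APPSw arrays by its brighter probe set. The log2 difference was 0.17 (SE 0.17), and the other set gave 0.11 (SE 0.17); in both the APPSw arrays lay above the controls. Scd1 had 12036 and 13002 against 12452 and 13717, with overlapping groups and a difference of 0.06 (SE 0.17). Its other probe sets gave -0.18 (SE 0.25) and, under the filter, -1.18, where control array 1 had 785 and control array 2 had 184. The last was -0.13 without control array 1 and -0.42 without APPSw array 2. Fads1, the delta-5 desaturase of polyunsaturated fatty acids, had 9209.8 and 9667 against 9081 and 9939.5, a difference of 0.01 (SE 0.17).

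Of the elongases, which lengthen fatty acids, Elovl5 had 8335 and 10539.6 on the control arrays and 7693 and 6974 on the APPSw arrays. Both APPSw arrays lay below both controls, with a log2 difference of -0.36 (SE 0.20; limma, adjusted p = 0.636), and the controls themselves differed by -0.34. Without control array 2 the difference was -0.19. The Elovl6 probe sets gave -0.08 (SE 0.18) and 0.13 (SE 0.30) with overlapping groups, and APPSw array 2 was the highest by one and the lowest by the other.

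Genes of lipid transport and storage had 8 of 10 probe sets above 0, against 56.3% of all probe sets, with a median of 0.11. With each array centred on its median, 5 of 10 lay above 0 and the median was 0.02. Of the 8 that passed the filter, 0 higher and 1 lower had an unadjusted p under 0.05 by limma, against 4.72% higher and 3.33% lower among all probe sets tested. The lower one belongs to Abca1, the exporter that loads cholesterol onto apolipoprotein E, and read 1115 and 1289 on the control arrays and 724 and 833 on the APPSw arrays. The means were 1202 ± 122.4 (SD, n = 2) and 778 ± 76.9 (SD, n = 2), a log2 difference of -0.63 (SE 0.19; limma, adjusted p = 0.599). The other Abca1 probe set had 1735 and 1726 on the control arrays and 1931 and 2281 on the APPSw arrays, a difference of 0.28 (SE 0.18) that was 0.16 without APPSw array 2. Groups did not overlap in either, so the gene's direction depended on the probe set. The sets came from different sequence entries, and the sources used here do not state which parts of the transcript they measure.

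Abcg1, a partner of Abca1 in sterol export, had 5780.3 and 5955 on the control arrays and 6544 and 6399.9 on the APPSw arrays, which did not overlap, a log2 difference of 0.14 (SE 0.17). Lpl, lipoprotein lipase, which frees fatty acids from lipoproteins, had 2579 and 2812 against 3273 and 3004 by its brighter probe set, a difference of 0.22 (SE 0.17). By the dimmer set it had 339 and 941 on the control arrays and 1219.5 and 936 on the APPSw arrays. That difference of 0.92 (SE 0.48) came with overlapping groups and with controls that differed by -1.47, and it was 0.18 without control array 1. Pltp, a phospholipid transfer protein, had 9579.6 and 7930.2 against 10619 and 7427, overlapping groups and 0.03 (SE 0.24).

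Of the fatty acid binding proteins, Fabp5 had 3836 and 2641 on the control arrays and 3833 and 5594 on the APPSw arrays. APPSw array 1 lay within the range of the controls. The difference of 0.54 (SE 0.28) was 0.27 without APPSw array 2 and also 0.27 without control array 2, the lowest array. Fabp7, the form of astrocytes and radial glia, had 3805 and 3508 against 3956 and 3789, an overlap, and 0.08 (SE 0.17). Vldlr, a lipoprotein receptor that also receives reelin, lay under the filter by both its probe sets, with overlapping groups and differences of 0.05 and -0.23, the latter -0.14 without control array 1 and 0.05 without APPSw array 2.

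**Figure D3:**
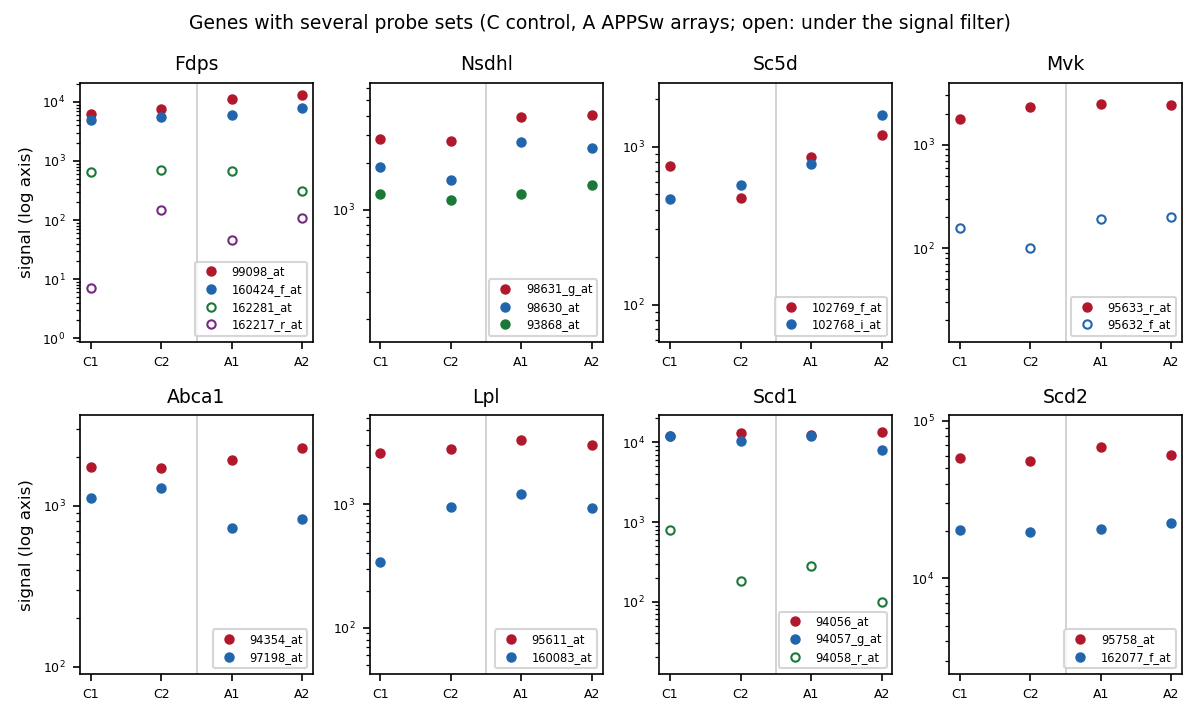
Signal on each array (log axis) for 8 genes with several probe sets, with controls C1 and C2 left and APPSw arrays A1 and A2 right of the line; open circles are probe sets under the filter. The Abca1 probe sets separate the groups in opposite directions, whereas the Scd2 pair and the brighter pairs of Fdps and Nsdhl separate them in the same direction.

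Further genes of lipid metabolism, listed apart from the members, had medians nearer to that of all probe sets, 0.06, than that of sterol synthesis, 0.39. The same held for the other member lists. The difference from sterol synthesis was not tested. Of 13 probe sets of 10 other genes of sterol and isoprenoid metabolism, 7 lay above 0, against 56.3% of all probe sets, and 6 below, with a median of 0.01. For 4 of the 13 both APPSw arrays lay above both controls, against 23.6% of all probe sets. These were sets of Ch25h, Fnta, Msmo1 and Tm7sf2. For 4 both lay below, against 15.7%, and these were Fntb, Lbr and both sets of Ggps1, at -0.36 and -0.25. The list also holds genes of protein prenylation and of oxysterols, so its median is not one of sterol synthesis alone. By limma 0 of the 11 probe sets of this list that passed the filter had an adjusted p under 0.05. Against 4.72% higher and 3.33% lower among all probe sets tested, 1 of the 11, a higher one, had an unadjusted p under 0.05. That one was Msmo1, which removes methyl groups from the sterol ring in the step before Nsdhl. It had 2812 and 2531 on the control arrays and 3561 and 3747 on the APPSw arrays, a log2 difference of 0.45 (SE 0.17). Of the other sterol synthesis enzymes on this list, Lbr had -0.28 (SE 0.19), and Tm7sf2 had 0.12 and, under the filter, 1.06. The subunits of farnesyltransferase, which attaches farnesyl groups to proteins, differed in sign. Fnta had 4081 and 3981 against 5136 and 5065, a difference of 0.34 (SE 0.17), and Fntb had 1751 and 1263 against 1120.0 and 138, a difference of -1.92 (SE 0.92) that was -0.41 without APPSw array 2.

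Of 28 probe sets of 21 other genes of lipoproteins and sterol transport, 15 lay above 0, against 56.3% of all probe sets, and 13 below, with a median of 0.04. By limma 0 of the 20 that passed the filter had an adjusted p under 0.05. Against 4.72% higher and 3.33% lower among all probe sets tested, 1 of the 20, a higher one, had an unadjusted p under 0.05. It was a dim probe set of Osbpl1a, an oxysterol-binding protein relative, with 512 and 442 on the control arrays and 883 and 698 on the APPSw arrays, a difference of 0.72 (SE 0.20). The brighter Osbpl1a set had 10165 and 10543 against 9183 and 11009, with overlapping groups and a difference of -0.04 (SE 0.18). Npc2, which moves cholesterol out of lysosomes, had a difference of 0.41 (SE 0.21) that was 0.21 without control array 1. Sorl1, a sorting receptor for amyloid precursor protein and lipoproteins, had a difference of -0.52 (SE 0.23) that was -0.25 without APPSw array 1. Apoe, the chief apolipoprotein made by brain cells, had 102759 and 106037 on the control arrays and 99683 and 89658 on the APPSw arrays, a difference of -0.14 (SE 0.17).

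Of 30 probe sets of 24 other genes of fatty acids and glycerolipids, 18 lay above 0, against 56.3% of all probe sets, and 12 below, with a median of 0.10. By limma 0 of the 19 that passed the filter had an adjusted p under 0.05. Against 4.72% higher and 3.33% lower among all probe sets tested, 1 of the 19, a higher one, had an unadjusted p under 0.05. It was Gpam, which starts glycerolipid synthesis in mitochondria, with 3629 and 3487 on the control arrays and 4993 and 5638 on the APPSw arrays, a difference of 0.58 (SE 0.17). Agpat1, which acts in the next step, had a difference of 0.76 (SE 0.32) that was 0.40 without control array 1 and 0.47 without APPSw array 1, and Lpin1, a phosphatidate phosphatase, of -0.37 (SE 0.17). For each of these both APPSw arrays lay on 1 side of both controls.

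**Figure D4:**
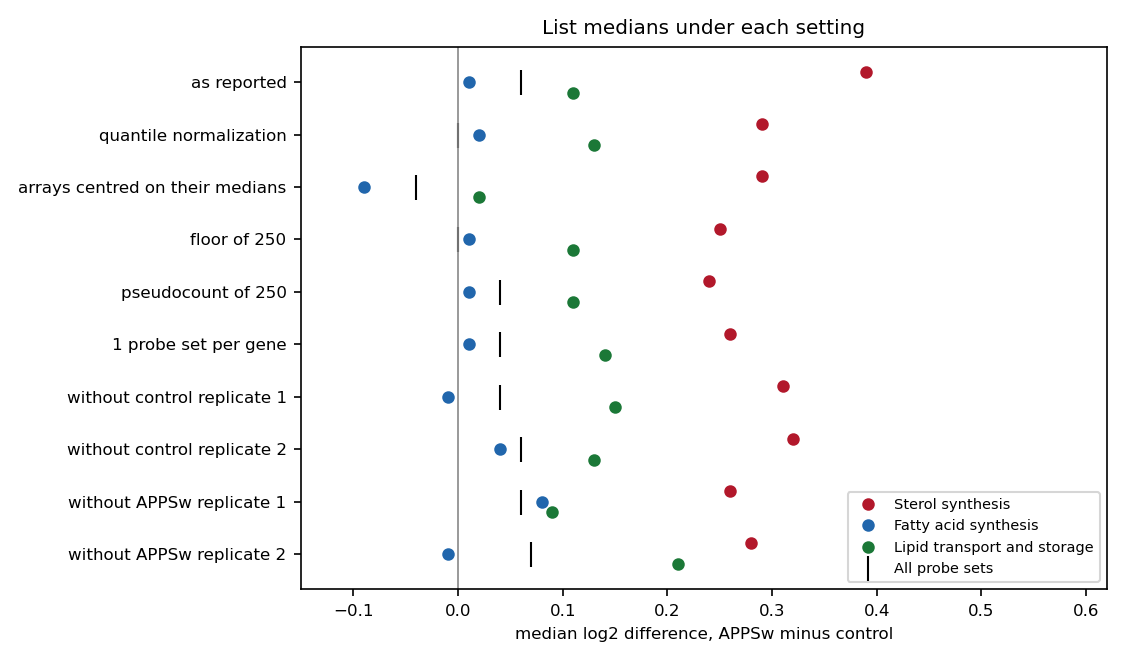
Median log2 difference, APPSw minus control, of the sterol synthesis, fatty acid synthesis and lipid transport and storage probe sets as reported and under each alternative setting; the black ticks are the median of all probe sets. The sterol synthesis median lies between 0.24 and 0.39 in every setting shown, and the fatty acid synthesis median between -0.09 and 0.08.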

How the data were processed

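The table deposited by the authors gives each probe set a linear signal intensity on each array; per the labels, MAS 5.0 produced these values and brought each array to a scale of 2500. Detection calls and scanner images were not used here. Of 12488 probe sets, 66 manufacturer's controls were left out. The platform annotation pairs 10833 of the other 12422 with 1 gene symbol; 396 have more than 1 symbol and 1193 none. The gene identifiers of all 30 members matched the RefSeq table (GRCm38.p6).

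The 2 groups were fitted on log2 signal in R 4.3.3 by limma 3.58.1, using lmFit and eBayes with two-sided p-values, over the 7453 probe sets with a mean log2 signal at or above the 40th percentile, a geometric mean of 565, with Benjamini-Hochberg adjustment over all of them. The fit had 2 residual and 3.70 prior degrees of freedom, and 2 arrays per group limit its precision. List medians run over every probe set, filtered or not, and have no test. Members, lists and tests were chosen with earlier results of these data known.

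Values on every array are given for probe sets whose groups did not overlap and differed by at least 0.3 in log2, for genes whose probe sets oppose each other by that much, and for other members as their roles required. Of each further pathway list up to 3 probe sets with the largest moderated statistic are named, and Apoe, and other genes where a count or a role required. On simulated data for this comparison, over 7453 probe sets, limma recovered 85.0% of 4-fold and 8.6% of 2-fold changes. It wrongly called a mean of 5.30 of those left unchanged in each run. The simulated noise was independent between probe sets and drawn from limma's own fitted variances, with no difference shared across an array. Real arrays may depart from this, so the rates hold for the simulation alone. The alternatives were other scalings, filters, floors and pseudocounts, an intensity trend, a replicate block, 1 probe set per gene and each array left out.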

Additional observations from a re-analysis of the deposited data

How the results depend on the processing

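The count of probe sets past limma's threshold was 0 under every alternative run, for all probe sets and for the members. The lowest adjusted p among the members was 0.276 to 0.828 with an array left out. The median log2 difference of sterol synthesis, 0.39 as reported, was 0.29 after quantile normalization, 0.29 with arrays centred on their medians, 0.25 with a floor of 250, 0.24 with a pseudocount of 250, 0.26 with 1 probe set per gene, and 0.26 to 0.32 with an array left out. That of fatty acid synthesis, 0.01 as reported, was 0.02 after quantile normalization, -0.09 with centred arrays, 0.04 over the probe sets that passed the filter (an alternative chosen after seeing the data) and -0.01 to 0.08 with an array left out. That of lipid transport and storage, 0.11 as reported, was 0.02 with centred arrays, 0.18 with the filter at the 60th percentile, 0.18 over the probe sets that passed the filter and 0.09 to 0.21 with an array left out. That of the regulators, 0.07 over 2 probe sets, ran from -0.53 to 0.68 with an array left out.

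Of 59 probe sets followed under the alternatives, 10 that passed the filter changed sign in some setting, each with a reported difference under 0.2 in size; under the filter, Insig1, both Vldlr probe sets and the dimmest Fdps probe set did so with an array left out. After quantile normalization Insig1 was -0.11 and the brighter Vldlr set -0.09, with centred arrays that Vldlr set was -0.05, and with a pseudocount of 250 Insig1 was -0.06. With centred arrays Fads1 was -0.09, Scd1 -0.03, Fabp7 -0.01, Pltp -0.07 and Ebp -0.06, and after quantile normalization Ebp was -0.04. With an array left out, the Elovl6 probe sets ran from -0.19 to 0.03 and from -0.28 to 0.54, Fads1 from -0.06 to 0.08, the brighter Scd1 sets from -0.01 to 0.13 and from -0.48 to 0.12, Pltp from -0.23 to 0.28, Srebf1 from -0.07 to 0.03, Cyp51 from -0.05 to 0.31 and Ebp from -0.16 to 0.24. The cause was not tested.

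The groups share replicate numbers 1 and 2, but nothing in the labels says that a number marks a litter or a batch, and the deviations of same-numbered arrays from their group means had a correlation of -0.02. With the replicate block 0 probe sets passed, and the lowest adjusted p among the members was 0.514. The signals of probe sets under the filter are dim, which limits their log2 differences.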

Other observations

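Among the further pathway genes, some probe sets under the signal filter had groups that did not overlap and a log2 difference of at least 1; they are named here after their values were seen. Pparg, a nuclear receptor of fat cell development and lipid storage, read 19.7 and 20.6 on the control arrays and 284 and 141 on the APPSw arrays. Cd36, a fatty acid transporter and scavenger receptor, had 56.2 and 67.4 on the control arrays and 203 and 176.0 on the APPSw arrays. In both genes each APPSw array was more than 2-fold above each control. In the fit with no filter, limma's adjusted p was 0.466 for each. Both genes lay far under the filter's signal of 565, and the log2 differences of 3.32 and 1.62 were 0.76 and 0.49 with a pseudocount of 250, and 0.09 and 0.00 with a floor of 250.

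Ch25h, which makes the oxysterol 25-hydroxycholesterol, had 148 and 86.4 on the control arrays and 218 and 265 on the APPSw arrays (limma with no filter, adjusted p = 0.741). Its difference of 1.09 was 0.42 with the pseudocount, 0.04 with the floor and 0.70 without control array 2. A dim probe set of Tm7sf2, a sterol reductase, had 239.6 and 606 against 855 and 736, a difference of 1.06 that was 0.69 with the pseudocount and 0.39 without control array 1, while the brighter set had a difference of 0.12. A dim Apoe probe set had 128 and 42.4 against 142 and 185, a difference of 1.14, while the bright one had -0.14. For the dim set the difference was 0.31 with the pseudocount, 0.00 with the floor and 0.34 without control array 2.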
